A study of Mus musculus with 163 samples.

Results

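*Pomc* and *Cartpt* encode the anorexigenic neuropeptide precursors of the arcuate nucleus, and their levels are described here in every one of the single hypothalamic neurons of the series, Cell_1 to Cell_163. They are 2 of the 12187 genes measured and were taken by gene symbol from the expression table of all cells. The series holds 1 library per neuron. The neurons came from the medial basal hypothalamus of male *Pomc-eGFP* transgenic mice (C57/BL6 Tg(Pomc-EGFP)1Low), 7 to 9 weeks old and fed *ad libitum*, and were sorted one at a time into plates by GFP fluorescence. Every cell carries the transgene and no treatment or genotype was compared. The sort follows a GFP driven by *Pomc* regulatory sequences, so cells without *Pomc* promoter activity, now or earlier, were largely left out. EGFP is not among the genes measured, and whether reads from the transgene's own transcript were counted under *Pomc* was not tested. The labels give a cell number and no animal, plate or date. All cells together therefore count as 1 sample, all values are descriptions over cells, and no p-value was computed.

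POMC is cut by prohormone convertases into several peptides. In the arcuate nucleus α-MSH, which activates melanocortin receptors and lowers food intake, is the best known of them. The CART peptide, encoded by *Cartpt*, is made by many of the same neurons. The neighbouring AgRP neurons make AgRP, which blocks the melanocortin receptors, and NPY, and they raise food intake.

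*Pomc* (ENSMUSG00000020660) lies on the plus strand of chromosome 12 at chr12:3954951-3960618 and *Cartpt* (ENSMUSG00000021647) on the minus strand of chromosome 13 at chr13:99898484-99900683 (GRCm38). The 250 bases before the RefSeq start of each gene (GRCm38.p6) are printed below because *Pomc* regulatory sequence also drives the GFP by which the cells were sorted, and because both genes varied over a wide range. They cover chr12:3954695-3954944 and chr13:99900684-99900933. Capitals mark matches, on either strand, to 6 motifs, namely the TATA box TATAAA, the E-box CANNTG, the CRE half-site TGACG, the STAT site TTCNNNGAA, the FOXO site GTAAACA and the homeobox core TAATTA.
Pomc: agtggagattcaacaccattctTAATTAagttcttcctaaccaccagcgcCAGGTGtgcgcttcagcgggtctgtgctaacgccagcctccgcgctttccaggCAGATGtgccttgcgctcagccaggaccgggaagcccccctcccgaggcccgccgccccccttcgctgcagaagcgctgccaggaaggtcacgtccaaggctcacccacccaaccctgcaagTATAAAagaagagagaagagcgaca
Cartpt: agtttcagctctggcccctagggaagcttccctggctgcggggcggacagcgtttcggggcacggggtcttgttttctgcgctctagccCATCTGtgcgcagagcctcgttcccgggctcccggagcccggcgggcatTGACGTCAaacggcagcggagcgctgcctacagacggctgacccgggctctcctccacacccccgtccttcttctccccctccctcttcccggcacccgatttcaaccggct
The *Pomc* window held 1 TATA box, 2 E-boxes and 1 homeobox core. The *Cartpt* window held 1 E-box and 2 CRE half-sites, which overlap on opposite strands, and no match to TATAAA. Of 32851 mouse promoter windows of the same length, 12.4% held the TATA box, 66.2% an E-box, 17.8% the CRE half-site, 7.02% the STAT site, 3.17% the FOXO site and 4.84% the homeobox core. A match is a match of letters and does not show a bound site.

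Values are log2RPM, the log2 of a gene's RPM (its reads scaled to a common library size) plus a floor of 0.532 RPM that stands for 0 reads (-0.91 log2RPM), and they are not divided by gene length. The reads over these genes in a single cell numbered 1.46 M in the shallowest library, 8.10 M at the median and 41.9 M in the deepest, and a cell had 4603 to 8589 genes at 5 RPM or more. The rule separates the cells at 10 log2RPM of *Agrp*: 48 cells (29.4%) were at or above this level and 70.6% were below. The cells just above the limit had *Agrp* at 10.12, 10.29 and 10.45 log2RPM, and those just below at 9.99, 7.15 and 6.82 log2RPM. All 16 pan-neuronal genes looked up were measured, and at least 3 of them reached 100 RPM in all 48 cells with high *Agrp* and in all but 1 of the others.

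Cell_106, in the class with low *Agrp*, did not carry the profile its label gives. The myelin genes *Mbp* and *Mobp* stood there at 14.24 and 13.35 log2RPM, and the 5 measured oligodendrocyte markers summed to 151849 RPM. Of its pan-neuronal genes only *Ncam1* reached 100 RPM, at 10.82 log2RPM, while *Snap25* was at 5.76 log2RPM against a median of 10.33 log2RPM. This library still held 287 *Pomc* reads (7.62 log2RPM, 196 RPM) and 39 *Cartpt* reads (4.76 log2RPM, 26.6 RPM) in 2.11 M reads. *Pomc* was at or below that level in 48 cells with low *Agrp* and in 45 of the 48 with high *Agrp*, and *Cartpt* in 47 and 10 cells. The source of these reads in Cell_106 was not tested. Levels of *Pomc* at or under about that of Cell_106 are therefore printed below as measured. They are not taken as evidence of expression by the cell.

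*Pomc* had at least 1 read in every cell. Its level ran from 1.01 to 16.06 log2RPM with a median of 7.21 log2RPM. The lowest value, in Cell_53, was 20 reads (1.48 RPM, exact Poisson 95% interval 0.904 to 2.29 RPM, counting error only). The highest, in Cell_155, was 394466 reads, or 5.49% of that cell's total. A read in every cell was common to 2514 genes (20.6%). Of the 29 genes that reached 13 log2RPM in some cell with a median under 8 log2RPM, only *Cartpt*, *Nnat*, *Npy*, *Pomc* and *Qdpr* had one in each cell.

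In the cells with *Agrp* below 10 log2RPM, *Pomc* ran from 1.01 to 16.06 log2RPM, with quartiles at 6.24, 8.54 and 12.77 log2RPM. The cells formed a broad lower part and an upper part with a thin place between them: 11 cells lay between 8 and 9 log2RPM, 3 between 9 and 10, and 8 between 10 and 11. A second rise lay near the top, with 11 cells between 14 and 15 and 9 between 15 and 16 log2RPM. Among mixtures of 1 to 4 normal components, 2 gave the lowest BIC (641.0, against 651.0 for 1), with means of 6.44 log2RPM (SD 2.18, 59.4% of cells) and 13.29 log2RPM (SD 1.83, 40.6% of cells). The mixture pools ranges of cell number between which *Pomc* differed (below). *Pomc* was at or below its level in Cell_106 in 48 cells of this class.

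In the 48 cells with *Agrp* at or above 10 log2RPM, *Pomc* ran only from 4.56 to 8.57 log2RPM, with quartiles at 5.85, 6.47 and 6.98 log2RPM. The interquartile range was 1.13 log2 units against 6.53 in the other class, and a single component gave the lowest BIC (128.4, against 140.2 for 2). The high-*Agrp* range lay inside the range of the other class, of whose cells 13 were below it, 47 within it and 55 above it. At 1000 RPM or more *Pomc* was found in 50 cells with low *Agrp* (43.5%, Clopper-Pearson 95% interval 34.3% to 53.04%) and in 0 of 48 with high *Agrp*, an upper limit of 7.40%. These limits cover counting error only. They treat cells as independent, although their animals and plates are unknown and *Pomc* differed between ranges of cell number (below), so they do not hold for the class beyond these cells. At 10000 RPM or more it was found in 26 cells, all with low *Agrp*.

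*Cartpt* ran from 0.92 to 13.94 log2RPM over all cells, with a median of 6.96 log2RPM. The lowest value was 9 reads, in Cell_87 (1.35 RPM, interval 0.619 to 2.57 RPM), and the highest was 136732 reads, in Cell_75, or 1.49% of that cell's total. In the cells with low *Agrp* the quartiles were 3.94, 5.97 and 9.98 log2RPM, and the distribution was again in 2 parts. It had its peak at the low end, with 17 cells between 3 and 4 and 19 between 4 and 5 log2RPM, and a long plateau above 8 log2RPM. A mixture of 2 components had the lowest BIC (605.7, against 630.0 for 1), with means of 4.08 log2RPM (SD 1.40, 54.9% of cells) and 10.39 log2RPM (SD 2.10, 45.1% of cells). This shape pools ranges of cell number between which *Cartpt* differed (below). Its lower quartile was 3.28 log2RPM in Cell_1 to Cell_66, 8.20 in Cell_67 to Cell_98 and 3.93 in Cell_99 to Cell_163. Whether each range has 2 parts was not tested. *Cartpt* was at or below its level in Cell_106 in 47 cells of this class.

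In the 48 cells with high *Agrp*, *Cartpt* ran from 0.92 to 11.85 log2RPM with quartiles at 5.46, 7.88 and 8.81 log2RPM. It was far wider there than *Pomc*, with an interquartile range of 3.35 against 1.13 log2 units, and 13 cells lay between 8 and 9 log2RPM. Mixtures of 1 and 2 components had about the same BIC (235.96 and 236.03). Of the cells with low *Agrp*, 14 lay above this range and none below it.

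**Figure D1:**
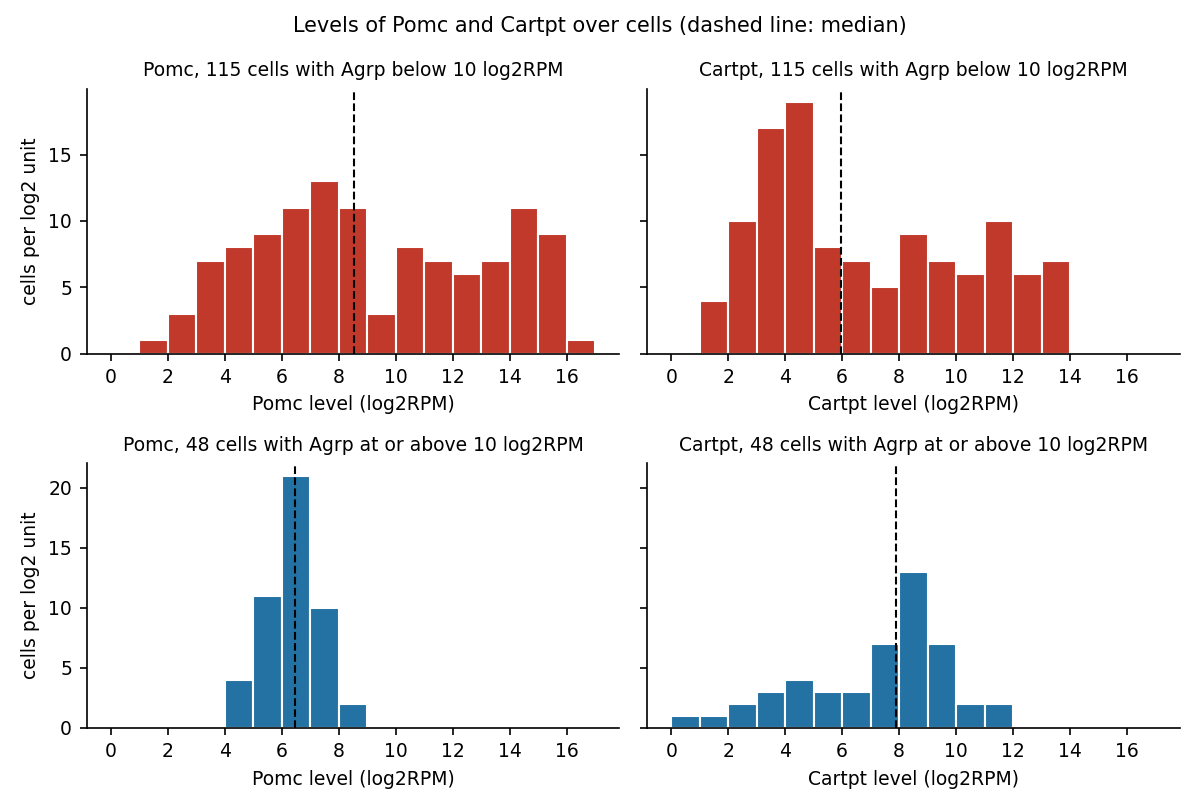
Numbers of cells per unit of log2RPM for *Pomc* (left) and *Cartpt* (right) in cells with *Agrp* below 10 log2RPM (top, red) and in the 48 cells at or above it (bottom, blue), with the median as a dashed line. *Pomc* spreads over 1.01 to 16.06 log2RPM in the top row with 3 cells between 9 and 10, and over 4.56 to 8.57 log2RPM in the bottom row.

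Levels of different genes were compared per kilobase of exon (1318 bases for *Pomc* and 1277 for *Cartpt*, from GENCODE M21). On this scale *Pomc* was the highest of 12168 genes in 34 cells and among the top 100 in 53 cells, all with low *Agrp*. Its median rank was 193 in that class and 1044.5 in cells with high *Agrp*. *Cartpt* was the highest gene in 4 cells, 1 of them with high *Agrp*, and its median rank was 1071 with low *Agrp* and 305.5 with high *Agrp*. More *Pomc* than *Cartpt* per kilobase was found in 89 cells with low *Agrp* and in 15 of 48 with high *Agrp*. The median log2 ratio of *Pomc* to *Cartpt* per kilobase was 1.95 in the first class (range -7.49 to 12.16) and -1.52 in the second (range -4.51 to 5.41).

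The median of *Pomc* was thus 2.07 log2 units higher in cells with low *Agrp*, and that of *Cartpt* 1.90 lower (a difference of -1.90), but neither difference was the same across the cell numbers. The cells were also read in the ranges Cell_1 to Cell_66, Cell_67 to Cell_98 and Cell_99 to Cell_163, called the first, middle and last range here, between which the low-level *Agrp* values differ. In the first range the median of *Pomc* was 6.47 log2RPM with low *Agrp* (34 cells) and 6.65 log2RPM with high *Agrp* (32 cells), a difference of -0.19. In the middle range the medians were 10.71 log2RPM (27 cells) and 5.90 log2RPM (5 cells), and in the last range they were 8.54 log2RPM (54 cells) and 6.43 log2RPM (11 cells).

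*Cartpt* in cells with low *Agrp* was highest in the middle range, with a median of 9.65 log2RPM, against 4.93 log2RPM in the first and 4.92 log2RPM in the last. The difference between classes was -3.12, 2.94 and -3.81 log2 units in the ranges in order of cell number. What the ranges stand for is not given by the labels, and the makeup of a range and a technical difference between ranges cannot be told apart. The spread of *Pomc* differed between the classes in every range: the interquartile ranges were 6.91, 5.88 and 5.97 log2 units with low *Agrp* and 1.13, 0.98 and 0.89 with high *Agrp*.

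**Figure D2:**
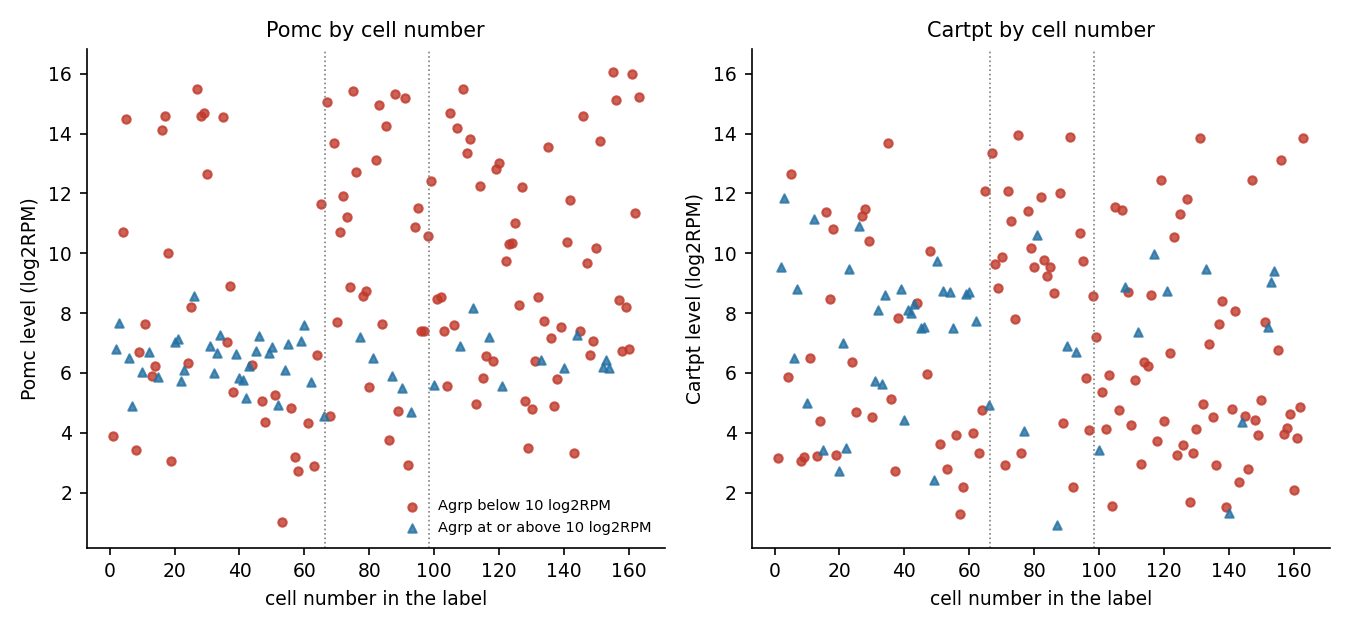
Level of *Pomc* (left) and *Cartpt* (right) in log2RPM against cell number, for cells with *Agrp* below 10 log2RPM (red circles) and at or above it (blue triangles); dotted lines part the 3 ranges of cell number. High-*Agrp* cells stay between 4.56 and 8.57 log2RPM of *Pomc* in all ranges, and the median of *Cartpt* with low *Agrp* is 9.65 log2RPM in the middle range.

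In cells with low *Agrp* the levels of *Pomc* and *Cartpt* were related, with a Spearman's rho of 0.57 over all cells of this class (Pearson's r 0.57). In the 3 ranges of cell number rho was 0.74, 0.61 and 0.43. *Pomc* was at or below its level in Cell_106 in 48 of these cells and *Cartpt* in 47. The genes ranked by rho further below are read over the same cells. The cells share the preparation of the suspension, and both genes are read from the same libraries. Neither gene followed depth (rho 0.033 for *Pomc* and 0.019 for *Cartpt*), and *Cartpt* had a rho of 0.21 with the number of genes at 5 RPM against 0.027 for *Pomc*.

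With limits of 10 log2RPM for *Pomc* and 8 log2RPM for *Cartpt*, set after the values were seen, both genes were high in 31 of these cells and both low in 52. *Pomc* alone was high in 18 cells and *Cartpt* alone in 14. The cells with the most *Cartpt* were mostly cells with very high *Pomc*: Cell_75, Cell_91 and Cell_163 had *Cartpt* at 13.94, 13.89 and 13.84 log2RPM and *Pomc* at 15.42, 15.19 and 15.21 log2RPM. The relation was not tight. Cell_131 had *Cartpt* at 13.84 log2RPM with *Pomc* at 6.41 log2RPM, a level found also in cells with high *Agrp*. Cell_161 had *Pomc* at 15.97 log2RPM with *Cartpt* at 3.82 log2RPM, and the cell with the highest *Pomc*, Cell_155, had *Cartpt* at 6.76 log2RPM.

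In the 48 cells with high *Agrp*, rho between *Pomc* and *Cartpt* was 0.21 (Pearson's r 0.23), with *Pomc* confined to 4.56 to 8.57 log2RPM. No cell passed the limit of 10 log2RPM for *Pomc*, and *Cartpt* was high in 24 cells and low in 24. Within the ranges of cell number rho was 0.25, -0.10 and 0.14, the middle value over 5 cells. The values of rho come from different spreads of *Pomc*, and the difference between the classes was not tested. In 45 of these 48 cells *Pomc* was at or below its level in Cell_106.

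**Figure D3:**
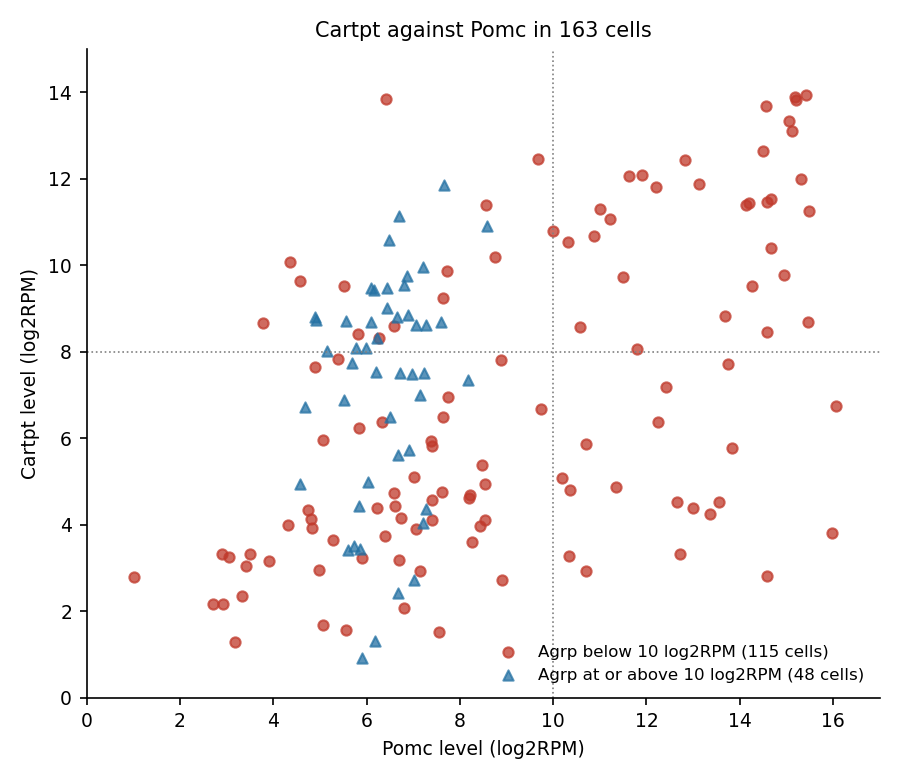
*Cartpt* against *Pomc*, both in log2RPM, in the cells with *Agrp* below 10 log2RPM (red circles) and the 48 at or above it (blue triangles); dotted lines mark 10 log2RPM of *Pomc* and 8 log2RPM of *Cartpt*. 31 circles lie in the upper right and 18 in the lower right, and all triangles lie left of the vertical line.

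Genes that followed *Pomc* were ranked by Spearman's rho in each class, among genes at 5 RPM or more in at least 20% of its cells. In cells with low *Agrp*, 37 of 9923 genes had a rho of 0.4 or more (0.373%) and 25 had -0.4 or less (0.252%), and the median over all genes was -0.023. The 12 highest were *Rab3b*, *Vgf*, *Six3*, *Plagl1*, *Pon2*, *Ezr*, *Spint2*, *Pdyn*, *Cst3*, *Prox1*, *Cd63* and *Rpl41*, with rho from 0.55 to 0.47. Of the 37, 13 were genes of the cytosolic ribosome, of which 76 were ranked (below). All 37 had a positive rho within each range of cell number, and 25 stayed at 0.4 or more when ranks were taken within the ranges. The 25 negative genes kept their sign in each range, and 12 of them stayed at -0.4 or less.

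*Rab3b*, a small GTPase of secretory vesicles, ran from 1.79 to 11.58 log2RPM with a median of 8.18 log2RPM and had the highest rho, 0.55. *Vgf*, a granin-like peptide precursor, ran from -0.75 to 11.04 log2RPM with a median of 4.10 log2RPM and had a rho of 0.54. *Vgf* reached 5 RPM in 45 of the 49 cells with *Pomc* at or above 10 log2RPM and in 28 of the 66 below. The highest *Vgf*, 11.04 log2RPM, was in Cell_27, whose *Pomc* was 15.49 log2RPM, but Cell_109 had *Pomc* at 15.47 log2RPM with *Vgf* at 0.45 log2RPM.

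*Pdyn*, the precursor of the dynorphin opioid peptides, followed *Pomc* with a rho of 0.50. By range of cell number this was 0.83, 0.50 and 0.13, so the relation was weak in the 54 cells of the last range. It ran from -0.91 to 10.80 log2RPM with a median of 6.39 log2RPM and reached 5 RPM in 44 of the 49 cells with high *Pomc* and in 35 of the 66 others. The 2 cells with the most *Pomc*, Cell_155 and Cell_161, were exceptions, with *Pdyn* at 1.28 and 1.54 log2RPM.

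The homeodomain factor *Six3* had a rho of 0.54, and its values fell apart into cells near the floor and cells at 4 to 9 log2RPM. It ran from -0.91 to 8.84 log2RPM with a median of 5.63 log2RPM. *Six3* reached 5 RPM in 48 of the 49 cells with high *Pomc* and in 32 of the 66 others, so that cells with high *Pomc* nearly all had it but many cells with little *Pomc* had it too. *Prox1*, another homeodomain factor, had a rho of 0.49, and the zinc-finger factor *Plagl1* 0.52. *Cst3*, the secreted protease inhibitor cystatin C, was in every cell at 7.56 log2RPM or more, with a rho of 0.50.

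**Figure D4:**
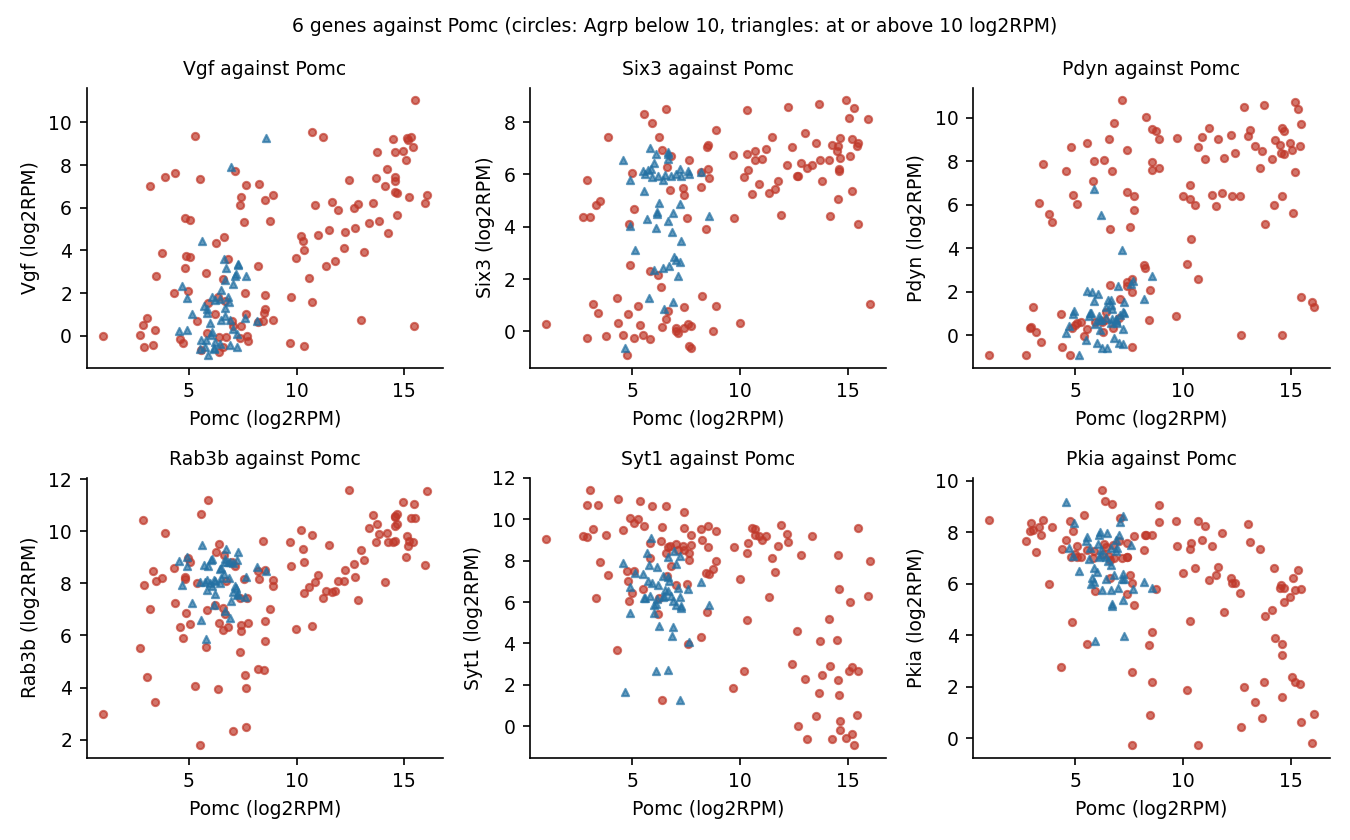
Levels of *Vgf*, *Six3*, *Pdyn*, *Rab3b*, *Syt1* and *Pkia* against *Pomc*, all in log2RPM, in cells with *Agrp* below 10 log2RPM (red circles) and at or above it (blue triangles). *Six3* and *Pdyn* fall into cells near the floor and cells several log2 units higher, and the low values of *Syt1* and *Pkia* lie mostly among circles with high *Pomc*.

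The 6 genes with the lowest rho to *Pomc* were *Plvap* (-0.55), *Pkia* (-0.54), *Syt1* (-0.52), *Atp6v1g2* (-0.48), *Stmn4* (-0.47) and *Nell1* (-0.44). *Syt1* encodes synaptotagmin 1, the calcium sensor of fast synaptic vesicle release. It ran from -0.91 to 11.40 log2RPM with a median of 7.98 log2RPM. *Syt1* was at 5 log2RPM or more in 61 of the 66 cells with *Pomc* below 10 log2RPM and in 25 of the 49 above. In Cell_75, Cell_88 and Cell_91, all with *Pomc* above 15 log2RPM, it was at 0.54, -0.91 and -0.35 log2RPM, whereas Cell_109, with *Pomc* at 15.47 log2RPM, had *Syt1* at 9.56 log2RPM.

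*Pkia*, an inhibitor of protein kinase A, ran from -0.26 to 9.63 log2RPM with a median of 6.92 log2RPM and was at 5 log2RPM or more in 57 of the 66 cells with low *Pomc* and 28 of the 49 with high *Pomc*. *Plvap*, a gene known from fenestrated endothelium, had a median of -0.51 log2RPM and a highest value of 6.25 log2RPM. It reached 5 RPM in 37 of the 66 cells with low *Pomc* and in 7 of the 49 with high *Pomc*. The single endothelial marker measured, of 7 listed, had a median of 0 RPM and a highest value of 126.4 RPM in this class and a rho of -0.016 with *Pomc*. The summed markers of other cell types differed in sign with *Pomc*: rho was -0.33 for oligodendrocyte precursor markers (2 of 5 measured, median 0 RPM), -0.23 for astrocyte markers (3 of 8, median 1.90 RPM), -0.18 for oligodendrocyte markers (5 of 8, median 81.8 RPM) and 0.17 for ependymal or tanycyte markers (4 of 7, median 3.40 RPM). Over all single genes the central 95% of values lay between -0.27 and 0.27. The part of these markers in the results was not tested. Without the 3 cells that had 3 or more markers of another type at 100 RPM, the counts were 38 genes at 0.4 or more and 23 at -0.4 or less.

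In the same cells 13 of 9923 genes had a rho of 0.4 or more with *Cartpt* (0.131%) and none had -0.4 or less (0%). The 12 highest were *Gpx3* (0.50), *Calb1* (0.49), *Pdyn* (0.48), *Stat3* (0.47), *Pcsk1* (0.47), *Npy1r* (0.45), *Cst3* (0.43), *Cited1* (0.43), *Gm20390* (0.42), *H2-Q2* (0.41), *Ghr* (0.40) and *Syt4* (0.40), of which *H2-Q2* belongs to a family with near-identical copies and its level is uncertain. All 13 genes had a positive rho with *Cartpt* in each range of cell number, and 8 stayed at 0.4 or more with ranks taken within the ranges. They also had a positive rho with *Pomc*, and 4 of them were at 0.4 or more there. As *Pomc* and *Cartpt* had a rho of 0.57 in these cells, genes chosen for one tend to follow the other. This overlap is therefore no separate result. In the last range the rho of the 12 named genes with *Pomc* ran from -0.18 (*Cited1*) to 0.52 (*Stat3*).

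*Pcsk1*, the convertase that makes the first cuts in POMC and also processes pro-CART, ran from -0.91 to 9.75 log2RPM with a median of 5.67 log2RPM, and it followed *Cartpt* with a rho of 0.47 and *Pomc* with 0.35. *Pcsk1* reached 5 RPM in 41 of the 45 cells with *Cartpt* at or above 8 log2RPM and in 45 of the 70 below. *Npy1r*, a receptor for NPY, reached 5 RPM in 41 of those 45 cells and 38 of the 70, with a rho of 0.45 to *Cartpt* and 0.22 to *Pomc*. *Stat3*, the transcription factor activated by the leptin receptor, had the same rho of 0.47 with each gene, and reached 5 RPM in 42 of 45 and 62 of 70 cells. The calcium-binding protein gene *Calb1* was at 12.65 log2RPM at most, with a median of 9.49 log2RPM. *Ghr*, the growth hormone receptor, was low, with a median of 1.69 log2RPM.

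The lowest values with *Cartpt* were those of *Cadps2* (-0.39), *Macf1* (-0.38), *Hnrnph1* (-0.37), *Zfp804a* (-0.36), *Nxph1* (-0.36) and *Brinp3* (-0.36). *Cadps2* encodes a factor that primes dense-core vesicles for release. It ran from -0.91 to 9.05 log2RPM with a median of 1.61 log2RPM, and its rho with *Pomc* was 0.039.

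**Figure D5:**
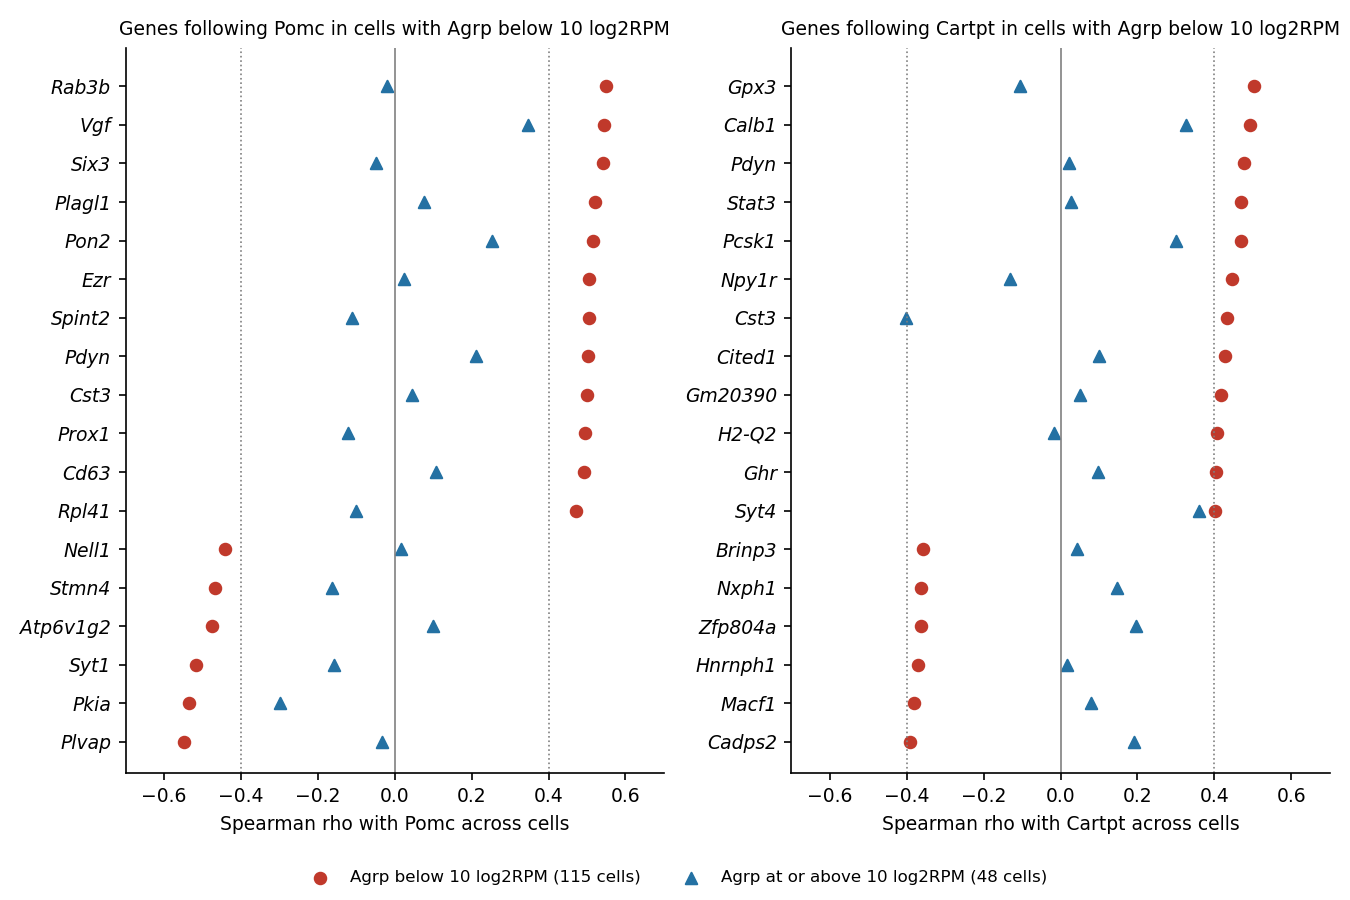
Spearman's rho across cells with *Pomc* (left) and *Cartpt* (right) for the 12 highest and 6 lowest genes of the class with *Agrp* below 10 log2RPM (red circles), with the value of the same gene in the 48 cells at or above 10 log2RPM (blue triangles); dotted lines mark 0.4 and -0.4. The circles were chosen for their place, and the triangles, which were not, lie on both sides of 0.

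In cells with high *Agrp*, 48 of 9943 genes had a rho of 0.4 or more with *Pomc* (0.483%) and 9 had -0.4 or less (0.0905%). The 6 highest were *Cluap1* (0.51), *Zfp760* (0.50), *Heca* (0.49), *Vmn2r29* (0.47), *Ccdc14* (0.47) and *Nfkbib* (0.47), and the 4 lowest *Zfp651* (-0.53), *Mad2l2* (-0.48), *Elmod1* (-0.44) and *Cul4a* (-0.44). The level of *Vmn2r29*, of a large family of vomeronasal receptor genes, is uncertain. Only 33 of the 48 positive and 6 of the 9 negative genes kept their sign in all 3 ranges of cell number, and 30 and 5 stayed past the limits with ranks taken within the ranges. Of the genes past these limits in the other class, none was past them here, where 0.483% and 0.0905% of all genes were. Of the 37 genes that followed *Pomc* upward with low *Agrp*, 33 could be read here, 16 had a positive rho with a range of -0.28 to 0.35, and 55.8% of all genes had one. *Vgf* had the highest value of these 33, 0.35, with a median level of only 1.04 log2RPM, and *Rab3b* and *Six3* had -0.019 and -0.049. The difference in rho between the classes was not tested. *Pomc* was at or below its level in Cell_106 in 45 of the 48 cells, and whether they made it themselves was not tested.

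In these 48 cells *Cartpt* had 64 genes at a rho of 0.4 or more (0.644%) and 49 at -0.4 or less (0.493%). The highest were *Gria3* (0.57), an AMPA receptor subunit, *Kcnmb2* (0.56), a potassium channel subunit, *Plpp7* (0.53), *Magi3* (0.52), *Apc* (0.52) and *Pex2* (0.52). The lowest were *Fam173a* (-0.57), *Vstm2l* (-0.54), *Resp18* (-0.54) and *Phlda3* (-0.51). *Resp18*, a protein of the secretory pathway, was abundant, at 10.98 to 13.49 log2RPM with a median of 12.21 log2RPM. *Pcsk1n*, the precursor of an inhibitor of *Pcsk1*, had a rho of -0.50 with *Cartpt*, and *Npy* -0.41. *Cartpt* here had a rho of 0.35 with the number of genes at 5 RPM, and given depth and that number the counts were 38 and 41 genes. Of the 64 positive genes 50 kept their sign in all 3 ranges and 38 stayed at 0.4 or more with ranks taken within them, and of the 49 negative genes 40 and 26. Of the 13 genes that followed *Cartpt* with low *Agrp*, 12 could be ranked in this class. None of the 12 had a rho of 0.4 or more here, against 0.644% of all genes, and 7 were above 0, against 54.5%. Their values ran from -0.40 (*Cst3*) to 0.36 (*Syt4*). The value of *Cst3*, at 0.43 with low *Agrp*, was -0.29 here given depth and genes detected and -0.36 with ranks taken within the ranges.

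Genes were also read by role, from lists chosen with earlier results of these data known. Of the convertases, carboxypeptidases, granins and vesicle factors, 19 of 20 could be ranked in cells with low *Agrp*. With *Pomc* 1 of 19, *Vgf*, was at 0.4 or more, against 0.373% of all genes, and none at -0.4 or less, against 0.252%. Of the 19, 17 were above 0, against 42.7% of all genes. Their median was 0.20 (0.13 with ranks within the ranges of cell number) against -0.023 for all genes. Genes of the ribosome and of the endoplasmic reticulum were also mostly positive with *Pomc* (below). *Pcsk2*, which cuts ACTH further toward α-MSH, had 0.11, and *Cpe*, the carboxypeptidase that trims the cut peptides, 0.16. With *Cartpt* 2 of 19, *Pcsk1* and *Syt4*, were at 0.4 or more, against 0.131% of all genes. Of the 19, 12 were above 0 with *Cartpt*, against 49.6% of all genes, with a median of 0.093 (0.15 with ranks within the ranges). In cells with high *Agrp* none of the 19 passed 0.4 with either gene, against 0.483% (*Pomc*) and 0.644% (*Cartpt*) of all genes. *Pcsk1n* alone was at -0.4 or less with *Cartpt*, against 0.493% of all genes.

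Among transcription factors of the arcuate nucleus, 21 of 28 were measured and 13 could be ranked in cells with low *Agrp*. *Six3* and *Stat3* were at 0.4 or more with *Pomc*, against 0.373% of all genes. Of the 13, 12 were above 0, against 42.7% of all genes, and the median was 0.21 (0.18 with ranks within the ranges). *Isl1*, a regulator of *Pomc* in development, had 0.23 with *Pomc* and 0.33 with *Cartpt*, *Tbx3* 0.23 and 0.19, and *Nkx2-1* 0.21 and 0.25. *Prdm12*, a zinc-finger factor of the *Pomc* lineage, reached 5 RPM in 21 cells (18.3%) and so fell just short of the 20% of cells asked for. Its rho with *Pomc* was 0.56. *Prdm12* reached 5 RPM in 20 of the 49 cells with *Pomc* at or above 10 log2RPM, up to 7.60 log2RPM, and in 1 of the 66 below, at 3.39 log2RPM. In the cells with high *Agrp* it reached 5 RPM in none. None of the 12 factors ranked there passed 0.4 or -0.4 with either gene, limits that 0.0905% to 0.644% of all genes passed.

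Other neuropeptide genes did not follow *Pomc* as a group. Of 13 ranked in cells with low *Agrp*, 5 had a rho above 0, against 42.7% of all genes. Their median was -0.054 (0.013 with ranks within the ranges). The list members *Pdyn* and *Ttr* (0.46) were at 0.4 or more, against 0.373% of all genes. *Ttr* encodes the thyroxine carrier transthyretin, which is not a neuropeptide, though the list holds it. *Penk* had -0.28, *Sst* -0.26 and *Npy* -0.19. *Agrp* itself had -0.15 with *Pomc* and -0.10 with *Cartpt*. These single values pool the ranges of cell number, between which low-level *Agrp*, *Pomc* and *Cartpt* all differed. Of the 48 receptors of energy balance, 40 were measured and 19 ranked. None passed 0.4 with *Pomc*, against 0.373% of all genes, whereas *Npy1r* and *Ghr* did with *Cartpt*, against 0.131%. The leptin receptor *Lepr*, at 5 RPM in 17.4% of cells, had 0.067 with *Pomc*, and the insulin receptor *Insr* 0.018.

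Of the transmitter genes, 9 were ranked in cells with low *Agrp*, with a median rho of -0.092 to *Pomc*. Of these 9, 4 were above 0, against 42.7% of all genes, and none was at 0.4 or more, against 0.373%. At -0.4 or less were 2, against 0.252% of all genes, among them *Slc32a1*, the vesicular GABA transporter, at -0.41. *Slc32a1* reached 5 RPM in 4 of the 49 cells with *Pomc* at or above 10 log2RPM and in 23 of the 66 below. The vesicular glutamate transporter *Slc17a6* reached it in 34 of 49 and 39 of 66 cells, with a rho of -0.12, and *Gad1* and *Gad2*, the enzymes that make GABA, had -0.19 and 0.13. With *Cartpt* no transmitter gene passed either limit in this class, against 0.131% and 0% of all genes.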

How the data were processed

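Single GFP-sorted neurons were amplified with SMART-Seq v4, made into Nextera XT libraries and sequenced as single-end reads. Per the submitters' processing notes, CASAVA 1.7, TopHat2 2.0.11, Cufflinks 2.2.1, edgeR and limma were used with GRCm38. The authors deposited 1 table of log2 values (log2RPM with a prior count), already filtered to 12187 genes, and these values were used as given. Linear RPM was 2 to the power of the value minus the floor of 0.532 RPM. Limits such as 5 or 100 RPM were applied before the floor was taken off. Cell_49, with *Cartpt* at 4.81 RPM, thus counts as reaching 5 RPM. The spacing of low values gave the worth of 1 read in each cell, and from it whole reads and depth. Values of 1 to 20 reads came out as whole, within 0.1 read, in 99.3% of cases. No 2 cells had identical columns (highest Pearson's r 0.784). Low levels are least certain in the shallowest cells, and intervals cover counting error only. The table's gene starts count from 0 and are printed from 1.

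Cells were parted at 10 log2RPM of *Agrp*. Genes at 5 RPM or more in 20% of a class's cells were ranked by Spearman's rho, with limits of 0.4 and -0.4, and no count model was run because the 163 cells (48 with high and 115 with low *Agrp*) are 1 sample. Named genes are, for each gene, the 12 highest and 6 lowest in cells with low *Agrp*, the 6 highest and 4 lowest with high *Agrp*, and list members as examples. A few genes are not reported here. Cells and genes picked out as examples beyond these were chosen after their values were seen. *Pomc* and *Cartpt*, the gene lists and the ranges of cell number were chosen with earlier results of these data known. Alternatives were Pearson's r, partial rho given depth and genes detected, rescaling by genes found in 90% of cells, other floors, other limits on *Agrp* and RPM, other gene filters, leaving out cells with 3 or more markers of another type, and ranges of cell number. Ranks within those ranges were added after seeing the data. The ranking was tested on simulated data. Exon lengths were from GENCODE M21 and promoters from RefSeq (GRCm38.p6). Scripts ran in Python 3.11.15 with scipy 1.17.1 for ranks, scikit-learn 1.9.0 for mixtures, matplotlib 3.10.9 for plots, pandas 2.3.3 and numpy 2.4.6.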

Additional observations from a re-analysis of the deposited data

How the results depend on the processing

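The relation of *Pomc* and *Cartpt* in cells with low *Agrp* (rho 0.57) moved most with the range of cell number, to 0.74 in the first range and 0.43 in the last, and lay between 0.51 and 0.61 under the other 11 alternatives. With high *Agrp* (0.21) it turned to -0.10 in the 5 cells of the middle range and stayed between 0.14 and 0.25 otherwise. The difference in *Pomc* between low and high *Agrp* (2.07 for medians) was 2.80 for means, -0.19 in the first range and 4.81 in the middle range. That in *Cartpt* (-1.90) was -0.29 for means, -3.12 in the first range, 2.94 in the middle and -3.81 in the last. The cause of these moves was not tested. *Pomc* reached 5 RPM in 99.4% of cells, 1 RPM in 100%, 10 RPM in 96.3% and 100 RPM in 61.3%. *Cartpt* reached these levels in 94.5%, 100%, 84.7% and 52.8%.

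Asking for 5 RPM in 50% of cells tests fewer genes, and gave 10 genes negative with *Pomc* at low *Agrp* against 25, 29 positive with *Pomc* at high *Agrp* against 48, and 39 positive with *Cartpt* at high *Agrp* against 64. Given depth and genes detected, 38 genes were positive with *Cartpt* at high *Agrp*, and 4 were negative with it at low *Agrp*, where there had been 0. Rescaling by genes found in 90% of cells gave 27 genes negative with *Cartpt* at high *Agrp* against 49. With 1 sample and no labelled batch, the spread between animals or plates cannot be given, and a level of few reads cannot be told from reads that came from other cells.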

Other observations

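The genes of the cytosolic ribosome, a family read after its values were seen, all had a positive rho with *Pomc* in cells with low *Agrp*. All 76 were above 0, against 42.7% of all genes, and 13 were at 0.4 or more, against 0.373%. The median was 0.31 (0.28 with ranks within the ranges of cell number and 0.32 given depth and genes detected). With *Cartpt* 75 of 76 were above 0, against 49.6% of all genes. None was at 0.4 or more, against 0.131%, and the median was 0.24 (0.16 with ranks within the ranges). In cells with high *Agrp* the medians were -0.094 with *Pomc* and -0.17 with *Cartpt*, and given depth and genes detected they were -0.082 and -0.011 (-0.040 and -0.097 with ranks within the ranges). Ribosomal protein genes have many processed copies in the genome, and their levels are uncertain.

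In cells with low *Agrp*, 42.7% of all genes had a rho above 0 with *Pomc* and 49.6% with *Cartpt*. With *Pomc* 27 of 29 genes of entry into and export from the endoplasmic reticulum and 12 of 12 heat shock and stress genes were above 0, and with *Cartpt* 23 of 29 and 7 of 12. Of the genes of the mitochondrial respiratory chain 8 of 18 were above 0 with *Pomc* and 16 of 18 with *Cartpt*. With *Pomc* the median rho was 0.12 over 29 genes of the endoplasmic reticulum, 0.14 over 12 heat shock and stress genes, 0.13 over 11 immediate early genes, 0.030 over 12 housekeeping genes, -0.018 over 18 genes of the mitochondrial respiratory chain and 0.11 over 12 markers of AgRP neurons, and -0.098 over 16 pan-neuronal genes. With *Cartpt* the medians were 0.15, 0.052, -0.087, 0.063, 0.10, 0.084 and 0.054 in the same order. Of these lists, *Syt1* and *Slc32a1* were the members at -0.4 or less with *Pomc* (0.252% of all genes). No member was at 0.4 or more with it (0.373% of all genes). The 4 pituitary markers measured, of 11 listed, had a rho of -0.041 with *Pomc* when summed, with a median of 4.21 RPM and a highest value of 17788 RPM. No microglial marker was measured.

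Beside Cell_106, Cell_14 and Cell_103 also had 3 or more markers of another cell type at 100 RPM. Cell_103 had 4 oligodendrocyte and 3 astrocyte markers together with 14 pan-neuronal genes at that level, with *Pomc* at 7.39 log2RPM and *Cartpt* at 5.95 log2RPM. Cell_14 had 3 astrocyte markers and 9 pan-neuronal genes, with *Pomc* at 6.22 log2RPM and *Cartpt* at 4.40 log2RPM.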
